A study of Mus musculus with 12 samples.

Results

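The nonmuscle actin and Srf-linked cytoskeleton is described here through 9 genes of 55401 in the deposited table. They were taken by name: Srf, the actin genes Actb and Actg1, the actin monomer binders Pfn1, Tmsb4x and Tmsb10, the filament-severing gene Cfl1, the filament-binding gene Tagln2 and the adhesion gene Vcl. Each name matched 1 row, and all 9 genes passed the filter on low counts. RNA was sequenced from Pax7-ZsGreen+ satellite cells, the muscle stem cells, sorted from hind limb muscle after enzyme digestion. There were 4 WT and 4 KO libraries of freshly sorted cells, called quiescent, and 2 WT and 2 KO libraries of cells kept in culture overnight, called activated. All mice were CXCR4 FL/FL and carried the Pax7-ZsGreen reporter, the KO mice also carried Pax7-creERT2, and all received tamoxifen at 80 mg/kg on 5 days. Cxcr4 was therefore deleted only in cells that expressed the Pax7-driven cre, and the WT cells kept the floxed allele without cre. The mice were adults of 3 to 4 months. The study counts samples as independent mice, but the labels do not tie each library to an animal, so that the p-values measure the spread between libraries.

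Actin is held in cells as monomers and filaments. Profilin, encoded by Pfn1, delivers monomers to growing filament ends, whereas the thymosins encoded by Tmsb4x and Tmsb10 keep monomers out of filaments, and cofilin, encoded by Cfl1, severs filaments. Free monomers also hold back the MRTF cofactors of SRF, a transcription factor that binds CArG boxes in front of many cytoskeletal and immediate early genes, so that actin assembly and SRF-driven transcription are linked. Vinculin, encoded by Vcl, couples actin filaments to integrin adhesions, and transgelin-2, encoded by Tagln2, binds filaments.

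A promoter window of RefSeq (GRCm38.p6), from 250 bases before to 50 bases after the gene start, was given for 8 of the 9 genes. None was given for Actb. CArG boxes of 10 bases, in which CC and GG enclose a run of A and T only, were searched on both strands; the motif reads the same way on either strand. They lay in the windows of 3 of the 8 genes, Actg1, Vcl and Srf. Among all 32851 windows of the same length, 1.63% held such a box. The stretches around the boxes are shown because these letters define the motif that SRF is known to bind; they are printed 5′ to 3′ on the strand of the gene, with the boxes in capitals.
Actg1, chr11:120348556-120348605, minus strand: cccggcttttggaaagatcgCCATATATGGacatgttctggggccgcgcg
Vcl, chr14:20929151-20929200, plus strand: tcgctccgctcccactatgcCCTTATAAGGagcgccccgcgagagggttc
Srf, chr17:46556195-46556264, minus strand: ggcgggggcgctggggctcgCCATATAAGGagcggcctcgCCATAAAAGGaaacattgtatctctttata
The box of Actg1 began 90 bases and that of Vcl 227 bases upstream of the start. Srf had 2 boxes, which began 82 and 62 bases upstream. Tagln2, Cfl1, Pfn1, Tmsb4x and Tmsb10 had no run of these letters within the window.

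The quiescent libraries held 12775593 to 23717013 counts and the activated libraries 3172164 to 5427280, so that levels in activated cells rest on fewer reads. The gene CT010467.1, which carries ribosomal RNA sequence, took 0.295% to 0.807% of counts in quiescent libraries and 11.5% to 40.3% in activated ones. The 9 genes together took 0.677% to 0.914% of counts in quiescent and 0.441% to 0.636% in activated libraries, or 0.719% to 0.739% in activated libraries when CT010467.1 was left out. The unit of all levels is CPM, in which edgeR's TMM factors bring the libraries to one size. Cxcr4, the targeted gene, had 80.5 ± 25.3 CPM (SD, n = 4) in quiescent WT, 17.1 ± 3.54 CPM (SD, n = 4) in quiescent KO, 23.9 ± 13.3 CPM (SD, n = 2) in activated WT and 9.54 ± 5.86 CPM (SD, n = 2) in activated KO cells. Xist had 1.20 to 7.17 CPM in all 8 quiescent libraries and 451 to 817 CPM in all 4 activated ones, and 4 Y-linked genes summed to 358 to 660 CPM against 0 to 2.51 CPM. State and sex of the mice cannot be told apart for any gene below. Summed satellite cell markers, 10 genes, lay at 5356 to 9102 CPM in quiescent and 2323 to 3544 CPM in activated libraries. Sdc4 and Myod1 weighed most, with means of 2506 and 1784 CPM in quiescent and 861 and 1517 CPM in activated WT. Pax7 and Myf5 had 392 and 128 CPM in quiescent and 109 and 9.97 CPM in activated WT.

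Activated cells had lower levels of 5 of the 9 genes, Srf, Actg1, Vcl, Tagln2 and Tmsb4x, and a higher level of 1, Pfn1, in both genotypes. The largest falls were those of Vcl and Tagln2, at 7.24-fold to 15.8-fold, and Pfn1 rose 3.02-fold in WT and 2.72-fold in KO. Actb, Cfl1 and Tmsb10 passed in neither genotype. A gene was called at an adjusted p under 0.05 (edgeR's quasi-likelihood test with Benjamini-Hochberg adjustment), a log2 fold change beyond 1 and a mean normalized count over 10. By this rule 9.59% of the 25771 genes tested were called higher and 15.7% lower in WT, and 11% higher and 17.4% lower in KO, against 1 and 5 of the 9 genes. The median log2 fold change over the 9 genes was -1.36 in WT and -1.38 in KO, beside -0.92 and -0.96 over all genes tested. Among the 7361 genes with an average log2 CPM over 4 by edgeR, as all 9 have, the medians were -0.14 and -0.11, and 18.8% were called higher and 25.6% lower in WT and 19.9% and 26.8% in KO. In bulk RNA, fewer cells of a type and less RNA per cell cannot be told apart. CPM are relative levels within a library, so that the amount of RNA per cell was not measured.

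**Figure D1:**
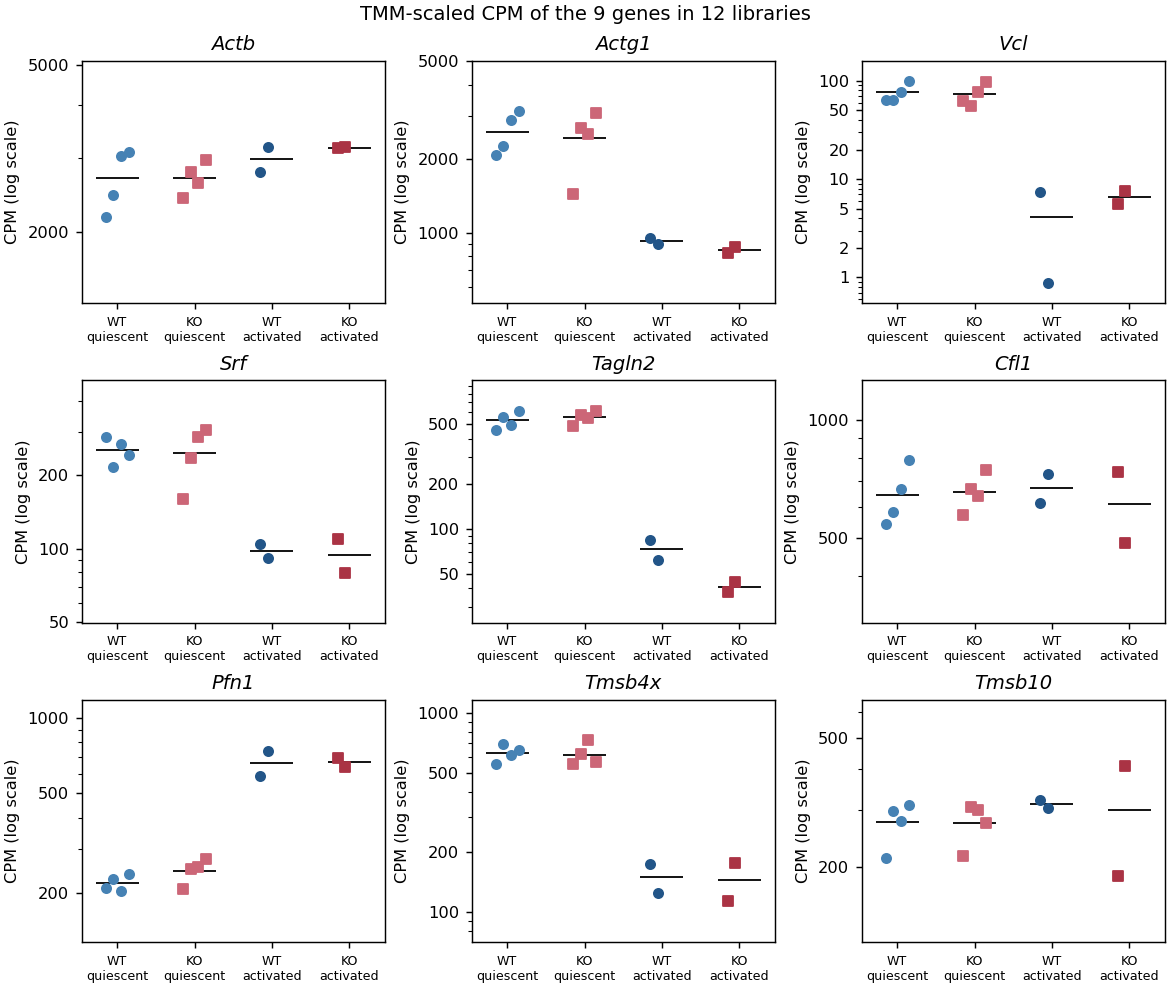
TMM-scaled CPM (log axis) of each of the 9 genes in the 12 libraries, as points by group (circles WT, squares KO), with a line at the group mean. Actg1, Vcl, Srf, Tagln2 and Tmsb4x sit lower in all 4 activated libraries than in any of the 8 quiescent ones, Pfn1 sits higher, and Actb, Cfl1 and Tmsb10 do not separate by state in WT.

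Srf (ENSMUSG00000015605), on chromosome 17 from 46548329 to 46556175, encodes the transcription factor itself. It had 286, 215, 267 and 241 CPM in the quiescent WT libraries and 159, 235, 286 and 305 CPM in the quiescent KO libraries. It had 104 and 92.0 CPM in activated WT and 109 and 79.8 CPM in activated KO libraries. Every activated library lay below every quiescent one. The log2 fold change was -1.36 in WT (standard error 0.29, adjusted p = 0.00125 by edgeR) and -1.38 in KO (adjusted p = 0.00102 by edgeR), a fall of 2.57-fold and 2.60-fold.

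Of the cytoplasmic actin genes, Actb encodes beta-actin and Actg1 gamma-actin, proteins that differ at only a few residues near the amino terminus. Actb (ENSMUSG00000029580), on chromosome 5 from 142903115 to 142906754, had 2163, 2450, 3028 and 3097 CPM in quiescent WT and 2400, 2782, 2617 and 2966 CPM in quiescent KO libraries. Activated WT libraries had 2769 and 3181 CPM and activated KO libraries 3159 and 3184 CPM. The WT groups overlapped, while both activated KO libraries lay above all 4 quiescent KO libraries, as did 18.3% of all genes tested. The log2 fold change was 0.15 in WT (95% interval -0.38 to 0.68) and 0.24 in KO (95% interval -0.29 to 0.77), and neither was called.

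Actg1 (ENSMUSG00000062825), on chromosome 11 from 120345690 to 120348542, had 2065, 2265, 2880 and 3134 CPM in quiescent WT and 1432, 2668, 2524 and 3077 CPM in quiescent KO libraries. It had 948 and 898 CPM in activated WT and 823 and 875 CPM in activated KO libraries. The states did not overlap, although quiescent KO replicate 1 lay far below the other quiescent libraries. Actg1 fell by 1.49 on the log2 scale in WT (standard error 0.32, adjusted p = 0.00139 by edgeR) and by 1.51 in KO (adjusted p = 0.00108 by edgeR).

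The makeup of the nonmuscle actin RNA therefore differed between states. Actb gave 51.0% ± 0.95 (SD, n = 4) of the Actb and Actg1 counts in quiescent WT, 53.4% ± 6.21 (SD, n = 4) in quiescent KO, 76.2% ± 2.47 (SD, n = 2) in activated WT and 78.9% ± 0.63 (SD, n = 2) in activated KO libraries. The lowest activated library, at 74.5%, lay above the highest quiescent one, at 62.6%. The sum of both genes was 5270 ± 953 CPM (SD, n = 4) in quiescent WT and 3898 ± 256 CPM (SD, n = 2) in activated WT libraries, and 5117 ± 934 CPM (SD, n = 4) and 4021 ± 54.9 CPM (SD, n = 2) in KO. The shares and sums are given without a test, since they are made of genes tested above.

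The genome holds near-identical copies of Actg1, and how the authors counted reads that fit several places is not given in the sources used here. Sequences that matched Actg1 at 90% identity or more, along 80% or more of the copy, took 1.37% to 2.88% of the reads of Actg1 and its copies in 11 libraries and 6.82% in activated KO replicate 2. The most read was Gm12715, a processed pseudogene with 99.64% identity. With these copies added to Actg1, the Actb share was 50.6% and 75.8% in quiescent and activated WT, and 53.0% and 78.0% in KO. The only copy of Actb found at this identity had 0 counts.

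**Figure D2:**
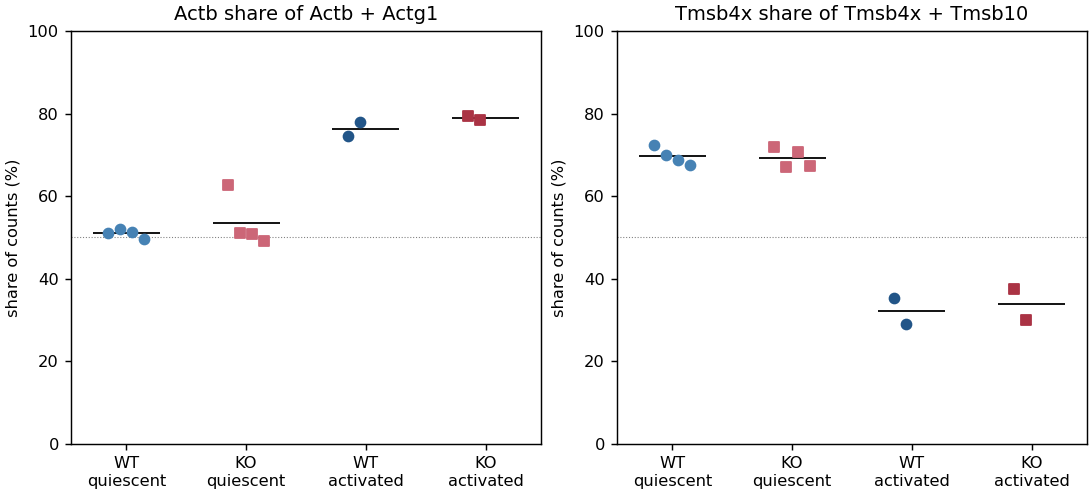
Share of counts (%) taken by Actb among Actb and Actg1 (left) and by Tmsb4x among Tmsb4x and Tmsb10 (right) in each library, by group, with a line at the group mean and a dotted line at 50%. The Actb share lies at 49.1% to 62.6% in quiescent and 74.5% to 79.3% in activated libraries, and the Tmsb4x share at 67.0% to 72.3% and 29.0% to 37.6%.

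Among the monomer binders, Pfn1 rose, Tmsb4x fell and Tmsb10 was not called. Pfn1 (ENSMUSG00000018293), on chromosome 11 from 70651850 to 70654644, had 209, 228, 204 and 238 CPM in quiescent WT and 207, 248, 253 and 272 CPM in quiescent KO libraries. It had 586 and 739 CPM in activated WT and 693 and 637 CPM in activated KO libraries, so that every activated library lay far above every quiescent one. Pfn1 was the only gene of the 9 called higher, with a log2 fold change of 1.59 in WT (standard error 0.22, adjusted p = 2.0e-05 by edgeR) and 1.44 in KO (standard error 0.22, adjusted p = 5.26e-05 by edgeR).

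Tmsb4x (ENSMUSG00000049775), encoding thymosin beta-4, lies on chromosome X from 167207093 to 167209315. It had 555, 698, 610 and 646 CPM in quiescent WT and 553, 622, 725 and 562 CPM in quiescent KO libraries, and 174 and 123 CPM in activated WT and 113 and 175 CPM in activated KO libraries. The states were far apart, with a log2 fold change of -2.07 in WT (standard error 0.28, adjusted p = 1.69e-05 by edgeR) and -2.10 in KO (adjusted p = 1.33e-05 by edgeR). Among protein-coding genes with a mean log2 CPM over 4 across the libraries, the 189 X-linked genes had a median log2 fold change of -0.59 in WT and -0.56 in KO, and the 6511 autosomal genes -0.14 and -0.10.

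Tmsb10 (ENSMUSG00000079523), on chromosome 6 from 72957347 to 72958748, encodes thymosin beta-10. It had 212 to 311 CPM in quiescent WT and 216 to 307 CPM in quiescent KO libraries. Activated WT libraries had 320 and 303 CPM, within or just above that range, and activated KO libraries had 187 and 410 CPM, on either side of it. Its log2 fold change was 0.18 in WT (95% interval -0.41 to 0.78) and 0.12 in KO (95% interval -0.47 to 0.72). The KO value rested on 2 libraries that went opposite ways, at -0.54 without activated KO replicate 2 and 0.58 without activated KO replicate 1. Copies of Tmsb10, mainly Gm9844 and Gm3788, took 4.26% to 10.9% of the reads of Tmsb10 and its copies.

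The makeup of the thymosin RNA differed between states as well. Tmsb4x gave 69.7% ± 2.05 (SD, n = 4) of the counts of both thymosins in quiescent WT and 69.2% ± 2.47 (SD, n = 4) in quiescent KO libraries, and 32.1% ± 4.43 (SD, n = 2) and 33.8% ± 5.42 (SD, n = 2) in activated WT and KO libraries. The ratio of Pfn1 to Tmsb4x counts was 0.351 ± 0.025 (SD, n = 4) in quiescent WT and 4.67 ± 1.85 (SD, n = 2) in activated WT libraries, and 0.401 ± 0.059 (SD, n = 4) and 4.90 ± 1.77 (SD, n = 2) in KO.

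Cfl1 (ENSMUSG00000056201), on chromosome 19 from 5490455 to 5495201, encodes the nonmuscle cofilin. It had 541, 582, 665 and 789 CPM in quiescent WT, 573, 667, 638 and 746 CPM in quiescent KO, 612 and 729 CPM in activated WT and 737 and 485 CPM in activated KO libraries. All groups overlapped. Its log2 fold change was 0.06 in WT (95% interval -0.48 to 0.59) and -0.10 in KO (95% interval -0.64 to 0.44), and its sign changed when single libraries were left out. Copies took 0.47% to 2.56% of its reads. The ratio of Pfn1 to Cfl1 counts went from 0.346 ± 0.049 (SD, n = 4) to 0.985 ± 0.040 (SD, n = 2) in WT and from 0.374 ± 0.016 (SD, n = 4) to 1.13 ± 0.264 (SD, n = 2) in KO.

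Tagln2 (ENSMUSG00000026547), on chromosome 1 from 172500047 to 172507380, had 460, 557, 493 and 611 CPM in quiescent WT and 487, 580, 548 and 614 CPM in quiescent KO libraries. It had 83.8 and 62.2 CPM in activated WT and 37.8 and 44.3 CPM in activated KO libraries. Every activated library lay far below every quiescent one. The fall was 7.24-fold in WT (log2 fold change -2.86, standard error 0.28, adjusted p = 3.97e-07 by edgeR) and 13.6-fold in KO (log2 fold change -3.76, standard error 0.30, adjusted p = 2.91e-08 by edgeR).

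Vcl (ENSMUSG00000021823), on chromosome 14 from 20929398 to 21033676, had 64.5, 64.5, 76.6 and 99.4 CPM in quiescent WT and 62.8, 56.1, 77.3 and 97.7 CPM in quiescent KO libraries. Activated WT libraries had 7.35 and 0.876 CPM and activated KO libraries 5.65 and 7.53 CPM. These came from 45, 2, 22 and 33 counts, and the 2 counts of activated WT replicate 2 give an exact 95% Poisson interval of 0.106 to 3.16 CPM, which covers counting error only. The highest activated library was still far below the lowest quiescent one.

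The log2 fold change of Vcl was -3.98 in WT (standard error 0.48, adjusted p = 3.54e-06 by edgeR) and -3.47 in KO (standard error 0.46, adjusted p = 9.21e-06 by edgeR). The WT value depended on the library used, at -6.36 without activated WT replicate 1 and -3.32 without activated WT replicate 2, and was called either way. Vcl has 8191 exon bases, while the other 8 genes have 1276 to 2893. Protein-coding genes with over 6000 exon bases and an average log2 CPM over 4 had a median log2 fold change of -0.40 in WT (interquartile range -1.27 to 0.34), against 0.29 for those of over 1500 up to 3000 bases. The part of transcript length in the result was not tested.

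In each genotype, all 6 called genes had groups that did not overlap. Of all genes tested, 17.6% were higher and 38.4% lower without overlap in WT, and 18.3% and 36.1% in KO. The WT and KO comparisons use different libraries. The fold changes of the 9 genes differed between genotypes by no more than 0.91 on the log2 scale, and 0 of the 9 differences passed the test (1 with an unadjusted p under 0.05; 0 by DESeq2), as did 0% of all genes.

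**Figure D3:**
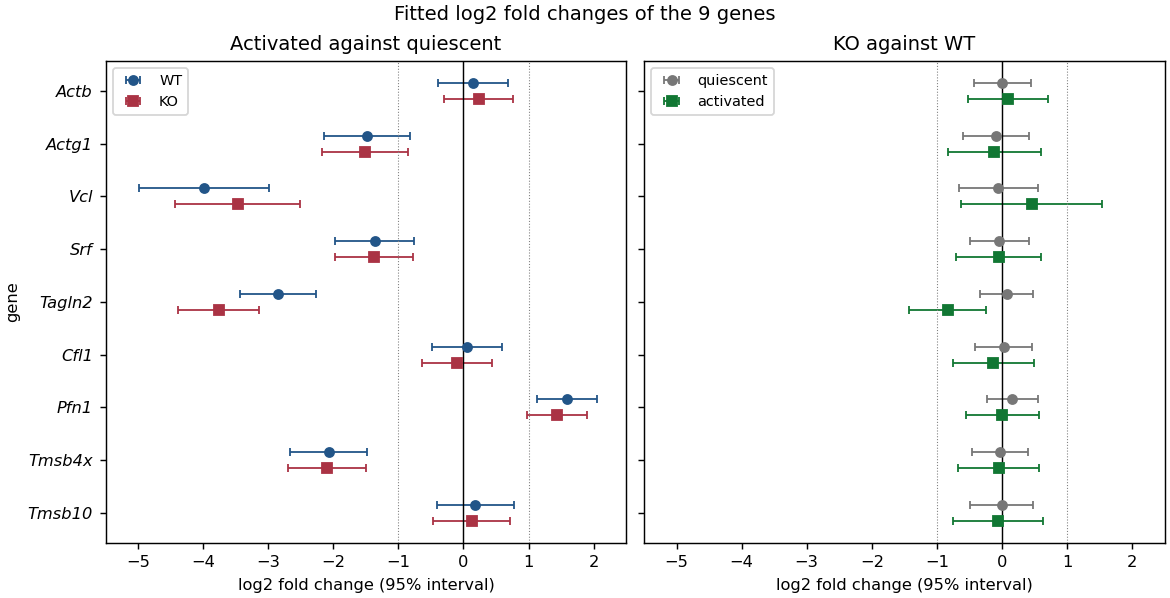
Fitted log2 fold changes of the 9 genes with 95% intervals (edgeR), for activated against quiescent cells in WT and KO (left) and for KO against WT in quiescent and activated cells (right); dotted lines mark a log2 fold change of 1 in either direction. On the left 5 genes lie below -1 and Pfn1 above 1 in both genotypes, and on the right the intervals span 0 except that of Tagln2 in activated cells.

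None of the 9 genes was called between KO and WT in either state. Cxcr4 itself was called lower in quiescent KO cells, at a log2 fold change of -2.24 (adjusted p = 0.00477 by edgeR). It was not called in activated KO cells, at -1.35 (standard error 0.46, adjusted p = 0.381 by edgeR), where the WT libraries had 33.3 and 14.4 CPM and the KO libraries 5.39 and 13.7 CPM. In quiescent cells the log2 fold changes of KO against WT lay between -0.09 for Actg1 and 0.16 for Pfn1, all 9 adjusted p were 1 (edgeR), and 0 of 9 had an unadjusted p under 0.05; DESeq2 also called 0. The outermost 95% limits were -0.66 and 0.55, so that changes of 2-fold lay outside every interval. Only 0.00776% of all genes were called higher and 0.00776% lower in this comparison. None of the 9 genes had groups without overlap, as did 0.869% (higher) and 0.827% (lower) of all genes.

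In activated cells the KO against WT values lay between -0.84 for Tagln2 and 0.46 for Vcl, with 95% limits from -1.43 to 1.54, and 0 of 9 were called (1 with an unadjusted p under 0.05; 0 by DESeq2), beside 0.031% of all genes called higher and 0.0194% called lower. Tagln2 stood furthest from 0. Both KO libraries, at 37.8 and 44.3 CPM, lay below both WT libraries, at 83.8 and 62.2 CPM, and the log2 fold change was -0.84 (standard error 0.29). Its unadjusted p of 0.00847 (edgeR) became an adjusted p of 0.381, and the range over all alternatives was 0.0608 to 1. Actg1 was also lower in KO without overlap, at a log2 fold change of -0.12 (95% interval -0.84 to 0.60). With 2 libraries per group, 9.5% of all genes were lower and 15.2% higher without overlap.

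The Tagln2 difference between KO and WT was 0.07 in quiescent cells and -0.84 in activated cells. The difference between these, -0.91 (standard error 0.35), had an adjusted p of 0.643 by edgeR, with an unadjusted p of 0.0162. It was not shown that the genotype effect differed between states for this gene.

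Levels of different genes can be set side by side only per length, here as CPM per kilobase of exon. In quiescent WT cells the order was Actb at 1002 ± 169 (SD, n = 4) and Actg1 at 973 ± 190, which overlapped, then Tmsb4x at 457 ± 43.9, then Tagln2, Cfl1 and Tmsb10 at 255, 227 and 215, which overlapped with their neighbours, then Pfn1 at 91.3 and Srf at 87.3, and last Vcl at 9.31. Quiescent KO cells gave the same order. In activated WT cells Actb at 1110 ± 109 (SD, n = 2) was followed by Actg1 at 347 ± 13.4, then Pfn1, Tmsb10 and Cfl1 at 275, 244 and 236, Tmsb4x at 109, Tagln2 and Srf at 35.1 and 33.9, and Vcl at 0.502. Pfn1 thus stood below Tmsb4x in quiescent cells and above it in activated cells, and in activated KO cells Srf, at 32.7, lay above Tagln2, at 19.7. The authors' FPKM, 1 value per group, were 973 for Actb and 944 for Actg1 in quiescent WT and 1138 and 354 in activated WT cells.

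Of the 4 muscle actins tested, Acta1 was called higher and Acta2 lower in both genotypes. Acta1, the actin of adult skeletal muscle fibres, went from 190 ± 70.7 (SD, n = 4) to 2911 ± 1528 CPM per kilobase (SD, n = 2) in WT, above Actb in the activated state, with a log2 fold change of 3.93 (adjusted p = 8.21e-07 by edgeR). Acta2, the smooth muscle actin, fell by 3.61 on the log2 scale in WT (adjusted p = 1.32e-05) and by 4.65 in KO (adjusted p = 1.42e-06). Summed markers of mature muscle fibres, 10 genes of which Acta1 is a member, lay at 323 to 1086 CPM in quiescent and 7731 to 18688 CPM in activated libraries, with all 10 called higher in both genotypes and none at 0 in any library. Markers of smooth muscle and pericytes, 8 genes, summed to 1395 to 2590 CPM in quiescent and 191 to 413 CPM in activated libraries, with none at 0 and 6 of 8 called lower in both genotypes. Their part in the changes of the actin genes, of Tagln2 and of Vcl, which smooth muscle cells also express, was not tested. Fibroadipogenic markers summed to 364 to 3293 CPM in quiescent and 295 to 759 CPM in activated libraries, endothelial markers to 272 to 1215 and 106 to 735 CPM, and blood cell markers to 81.3 to 335 and 37.4 to 61.4 CPM.

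The other genes of the pathway were taken from 11 lists, of which 150 different genes were tested. In WT 18 of the 150 were called higher and 49 lower in activated cells, with a median log2 fold change of -0.50, and in KO 13 were called higher and 55 lower, with a median of -0.81. These are 12% and 32.7% in WT and 8.67% and 36.7% in KO, against the 9.59% and 15.7% in WT and 11% and 17.4% in KO given above for all genes. Among the 7361 genes with an average log2 CPM over 4, the shares were 18.8% and 25.6% in WT and 19.9% and 26.8% in KO. Median log2 fold changes were -0.92 in WT and -0.96 in KO over all genes, and -0.14 and -0.11 over those 7361. Between KO and WT 0 of 150 were called in either state by edgeR, where 0 in quiescent and 19 in activated cells had an unadjusted p under 0.05. Over all 25771 genes tested, 448 in quiescent and 2158 in activated cells had such a p by edgeR.

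Immediate early genes listed as targets of Srf and its ternary complex partners were the most uniform group. The quiescent cells had been through enzyme digestion and sorting, and the paper places the earliest step of activation in that digestion. The part of this handling in the levels of these genes was not tested. Of the 10 genes tested, 9 were called lower and 0 higher in both genotypes. The median log2 fold change was -4.33 in WT and -5.15 in KO. Over all genes tested, 9.59% were called higher and 15.7% lower in WT, and 11% and 17.4% in KO. Of the 7 with a promoter window, only Egr2 held a CArG box, and it had 0.767 CPM in quiescent and 0 CPM in activated WT. Fosb, a subunit of the AP-1 transcription factor, went from 10001 ± 1659 CPM (SD, n = 4) to 104 ± 91.0 CPM (SD, n = 2) in WT, and Fos, another AP-1 subunit, from 4014 ± 693 to 51.0 ± 38.7 CPM. Egr1, a zinc finger transcription factor, and Nr4a1, an orphan nuclear receptor, had log2 fold changes of -4.44 (adjusted p = 5.91e-08 by edgeR) and -4.69 (adjusted p = 4.12e-08 by edgeR).

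The cytoskeletal targets of MRTF and Srf were mixed. Of 23 tested, 3 were called higher and 9 lower in WT, and 4 higher and 9 lower in KO, with medians of -1.16 and -0.91. All genes tested had 9.59% called higher and 15.7% lower in WT, and 11% and 17.4% in KO. The 4 with the largest change in WT were Acta1 and, all lower, Acta2, Cnn1 and Myl9. Cnn1, encoding smooth muscle calponin, went from 9.73 ± 5.41 CPM (SD, n = 4) to 0.872 ± 0.615 CPM (SD, n = 2), and Myl9, encoding a regulatory myosin light chain, from 166 ± 73.8 to 31.2 ± 21.9 CPM. The activated WT value of Cnn1 rests on 9 counts. Acta1 is also among the fibre markers and Cnn1 among the smooth muscle markers given above.

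The cofactors of Srf had 1 of 8 called higher and 4 lower in WT, and 0 higher and 3 lower in KO. Shares over all genes tested were 9.59% higher and 15.7% lower in WT, and 11% and 17.4% in KO. Scai, an inhibitor of MRTF, went from 37.6 ± 4.12 CPM (SD, n = 4) to 6.58 ± 0.632 CPM (SD, n = 2) in WT and from 30.6 ± 3.42 to 14.3 ± 8.20 CPM in KO. The ternary complex factors Elk1 and Elk4 had log2 fold changes of -1.44 (adjusted p = 0.00111) and -1.21 (adjusted p = 0.00362) in WT by edgeR. Myocd, the muscle-restricted myocardin, went from 4.70 ± 3.51 CPM (SD, n = 4) to 0.49 ± 0.69 CPM (SD, n = 2) in WT, a log2 fold change of -2.87 (adjusted p = 0.0456 by edgeR) that rests on 6 counts in activated cells.

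Genes of filament nucleation were called in both directions. In the list of the Arp2/3 complex, which nucleates branched filaments, and its activators, 6 of 21 were called higher and 4 lower in WT, and 3 and 3 in KO. These shares, 28.6% and 19% in WT and 14.3% and 14.3% in KO, stand beside 9.59% and 15.7% and 11% and 17.4% of all genes. With an average log2 CPM over 4, genes had 18.8% and 25.6% called in WT and 19.9% and 26.8% in KO. The KO counts therefore give no result about this list. By adjusted p alone (edgeR), 6 were higher and 4 lower in WT, and 7 and 4 in KO. The smaller number called higher in KO thus comes with the fold change limit. Brk1, a subunit of the WAVE complex that activates Arp2/3, rose from 41.5 ± 1.87 CPM (SD, n = 4) to 127 ± 11.8 CPM (SD, n = 2) in WT. Arpc3, a subunit of Arp2/3 itself, fell from 34.0 ± 4.71 to 9.09 ± 1.70 CPM, and Baiap2 and Wasf3, which act upstream of the complex, had log2 fold changes of -1.99 and -1.48. Of 13 formins, which nucleate unbranched filaments, 0 were called higher and 3 lower in WT, and 0 and 6 in KO. They included Daam1, at a log2 fold change of -1.24 in WT and -1.69 in KO, Daam2, at -2.54 and -2.38, and in WT Fmn2, at 3.08 ± 1.75 CPM (SD, n = 4) in quiescent and 0.082 ± 0.116 CPM (SD, n = 2) in activated cells. The activated value of Fmn2 came from 1 count, and the ratio of the summed levels, 25.7, had an exact 95% interval of 4.57 to 1020 for counting error only.

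Among genes of filament turnover and capping, 2 of 25 were called higher and 5 lower in WT, and 3 and 7 in KO. These shares, 8% and 20% in WT and 12% and 28% in KO, stand beside 9.59% and 15.7% and 11% and 17.4% of all genes, so that the counts give no result about this list. Gsn, which severs and caps filaments, went from 442 ± 28.8 CPM (SD, n = 4) to 66.7 ± 14.0 CPM (SD, n = 2) in WT. Pfn2, another profilin, rose as Pfn1 did, from 13.8 ± 1.71 to 58.4 ± 24.6 CPM. Pfn4, a further profilin tested, was near the floor, at 0.740 ± 0.767 CPM in quiescent WT and 0.327 ± 0.462 CPM in activated WT. The cofilin phosphatase gene Ssh3 fell by 2.24 on the log2 scale in WT, and Lmod1, a leiomodin of smooth muscle, by 1.71. The relatives of Cfl1 moved in opposite directions while Cfl1 itself was not called. Cfl2, the muscle cofilin, had a log2 fold change of 1.02 in WT and 1.23 in KO, and Dstn, the gene of destrin, -1.11 and -1.34. Of the 7 paralogs of the 9 genes that could be tested, 2 were called higher and 1 lower in WT, and 2 and 2 in KO.

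Focal adhesion genes, whose products include binding partners of vinculin, had 5 of 24 called higher and 9 lower in WT, and 2 and 9 in KO. Beside these stand 9.59% higher and 15.7% lower of all genes in WT, and 11% and 17.4% in KO. Tln2, a talin that links integrins to actin, went from 212 ± 26.2 CPM (SD, n = 4) to 31.6 ± 2.63 CPM (SD, n = 2) in WT, and Tns2, a tensin, from 256 ± 35.6 to 40.2 ± 22.8 CPM. Tns3, another tensin, went the other way, from 36.0 ± 5.88 to 349 ± 15.1 CPM, a log2 fold change of 3.28 (adjusted p = 4.41e-08 by edgeR). Fermt1, a kindlin, had 1.76 ± 1.52 CPM (SD, n = 4) in quiescent WT cells and 0 counts in both activated WT libraries. Against a floor of 3 counts over both, 0.357 CPM, its summed quiescent level of 1.56 CPM, from 120 counts, was 4.38-fold higher. This ratio carries no error for the quiescent level. The quiescent WT libraries had 2.35, 3.62, 0.833 and 0.241 CPM, so that replicate 4 lay below the floor.

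Nonmuscle myosin II and tropomyosin genes had 2 of 14 called higher and 6 lower in both genotypes. For all genes the shares were 9.59% higher and 15.7% lower in WT, and 11% and 17.4% in KO. Myh14, a nonmuscle myosin heavy chain, fell by 3.29 on the log2 scale in WT and by 2.19 in KO, and the light chain gene Myl12b had log2 fold changes of -3.26 and -2.98. Activated libraries held only 23 counts of Myh14 in WT and 43 in KO, and 11 and 14 of Myl12b. Mylk, the gene of the myosin light chain kinase, fell by 2.91 and 3.59, and is also among the smooth muscle markers. In WT the tropomyosin genes Tpm1 and Tpm2 went the other way. Tpm1 went from 140 ± 29.9 CPM (SD, n = 4) to 311 ± 60.2 CPM (SD, n = 2), and Tpm2 from 109 ± 29.2 to 448 ± 239 CPM. Myh9, another nonmuscle myosin heavy chain, had 453 ± 58.1 CPM in quiescent and 549 ± 105 CPM in activated WT.

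**Figure D4:**
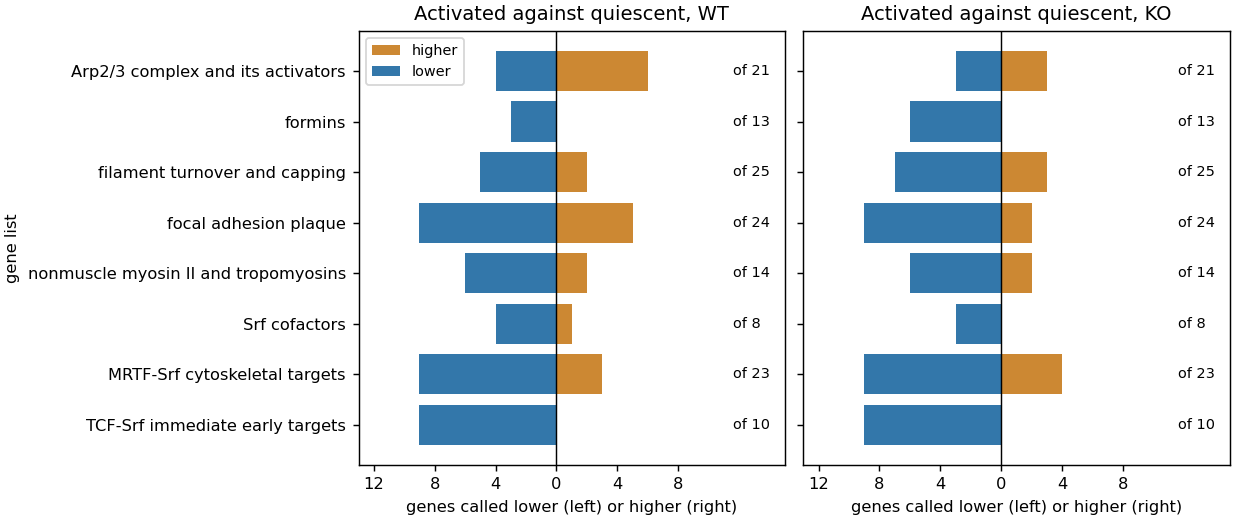
Number of genes called higher (right, orange) and lower (left, blue) in activated against quiescent cells for 8 lists of cytoskeletal and Srf-linked genes, in WT and KO; the number tested is printed beside each list. The immediate early list has 9 of 10 called lower in both genotypes, and the Arp2/3 list has 6 called higher and 4 lower in WT.

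The CArG boxes printed above were set beside the changes. The 3 genes with a box, Actg1, Vcl and Srf, were all called lower in both genotypes. Of the 5 genes whose windows held none, Tagln2 and Tmsb4x were called lower, Pfn1 higher, and Cfl1 and Tmsb10 neither. Actb had no window to search and was called in neither genotype, at log2 fold changes of 0.15 in WT and 0.24 in KO. Over all tested genes with a window, 26.8% of the 235 with a box were called lower and 11.9% higher in WT, and 18.5% and 11.7% of the 15080 without one. In KO the shares were 23.8% and 11.9% with and 20.3% and 12.8% without a box. These shares are a description of letters in a window, not of binding.

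Over the 12 libraries, the genes whose log2 CPM was most like that of Srf among 6837 well expressed genes included Egfr (Pearson r = 0.98), Cdon (0.98), Pcbp4 (0.98) and Hmcn2 (0.98). For Actb they were Rpl18 (r = 0.94), Cd63 (0.94), Rps18 (0.94), Cnbp (0.93) and Naca (0.93). The points share depth and state, which for Srf separates the libraries into 2 clusters, so the r values only describe these libraries.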

How the data were processed

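The deposited counts are whole reads per gene in 12 libraries of polyA RNA, which the authors trimmed (Trim Galore 0.6.0), mapped to GRCm38.p6 (STAR 2.7.2a) and counted on GENCODE genes with Rsubread. The deposited FPKM give 1 value per group, made by the authors. Columns of the authors' own comparisons, where present, were not used. Genes were filtered by edgeR's filterByExpr (25771 of 55401 kept), scaled by TMM and fitted in 1 edgeR 4.0.16 quasi-likelihood model of the 4 groups in R 4.3.3, with Benjamini-Hochberg adjustment over all genes, and the fit was tested on simulated data. Depth was 3172164 to 23717013 counts. Each standard error was derived from the F statistic of its contrast. Coordinates and exon lengths are from GENCODE M21 (GRCm38), and copies were found by blastn 2.17.0. The 9 genes, the lists and the markers were chosen with earlier results of these data known. From each list, up to 4 called genes with the largest change in WT are named, and the 5 genes most like Actb and Srf by Pearson r over libraries at an average log2 CPM over 4; 1 list and 1 such gene are not reported here. Alternatives were other scalings, filters and libraries, the replicate block and DESeq2 1.42.0.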

Additional observations from a re-analysis of the deposited data

Results flagged for a closer look

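In quiescent KO replicate 1, Actb gave 62.6% of the Actb and Actg1 counts, while the other 3 quiescent KO libraries had 49.1% to 51.0%. The gap to the nearest library was 0.855 of the range of the group, above Dixon's 95% critical value for 4 libraries. It was 1 flag among 24 tests, some of them on measures made of the same genes. Chance alone flags about 1 in 20 such tests, so that 1 flag is not beyond chance. The same library had the lowest Actg1 level, 1432 CPM, and the lowest Srf level, 159 CPM, of the 8 quiescent libraries, while its Actb level of 2400 CPM lay within the range of the others. Its fibroadipogenic markers summed to 364 CPM, the lowest of the 8. The part of the cell mixture in this value was not tested.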

How the results depend on the processing

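The number of the 9 genes called, 1 higher and 5 lower in activated cells of either genotype and 0 between KO and WT, was the same under every alternative run. Among these were DESeq2 and its size factors, other filters on low counts, the compared groups alone, the adjusted p alone, counts without CT010467.1, each library left out in turn, and, chosen after seeing the data, both activated libraries numbered 2 left out. The highest adjusted p of a called gene under any of them was 0.0489 for Actg1 in WT and 0.0493 for Srf in KO. Of the fold changes, 8 changed sign, none of them of a called gene. Cfl1 in WT was -0.0038 without quiescent WT replicate 1, -0.016 without activated WT replicate 2 and -0.039 without both activated libraries numbered 2. Cfl1 in KO was 0.031 with the replicate block, 0.18 without activated KO replicate 2 and 0.18 without both libraries numbered 2. Tmsb10 in KO was -0.54 and -0.53 in these last 2 cases. With each library left out in turn, Cfl1 lay between -0.016 and 0.25 in WT and between -0.44 and 0.18 in KO, and Tmsb10 in KO between -0.54 and 0.58. The causes were not tested. Leaving out activated WT replicate 2 moved the median log2 fold change of well expressed genes by 0.11 in WT. The deviations of same-numbered quiescent WT and KO libraries correlated at r = 0.37, 0.15, -0.48 and 0.73, over 0.1 in 3 of 4 pairs, and 4 of the 8 libraries correlated best with their own number. Same-numbered quiescent libraries also had like depths. Since 1 pair went the other way and no label ties the numbers to a batch, they were not read as pairs, and the block changed no count of called genes among the 9. Crossing the numbers of the activated KO libraries, after r = -0.14, left 0 of 9 called between KO and WT. Over all genes, the calls between KO and WT in activated cells, 8 higher and 5 lower, became 125 and 200 without the filter, 57 and 87 by DESeq2, and 0 and 0 without activated WT replicate 1. In quiescent cells, 2 and 2 became 38 and 8 without the filter, and for the difference between states 0 and 0 became 63 and 107. In activated against quiescent cells, the 4043 genes called lower in WT became 2435 without activated WT replicate 2, and the 4477 in KO became 2726 without activated KO replicate 1. Vcl had 2 to 45 counts per activated library, which limits its fold change.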
